A study of Mus musculus with 6 samples.

Results

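A group of 293 genomic regions was bound by PPARγ in 3T3-L1 adipocytes, was absent from the final PPARγ list of macrophages, and was nevertheless a binding site of the macrophage factors PU.1 or C/EBPβ. The members were chosen by overlap of at least 1 bp between deposited lists, so binding by PPARγ in adipocytes, its absence from the final macrophage list and the presence of a factor define them and are no result. They made up 293 of the 2634 regions in the final adipocyte list (11.1%, 95% Wilson interval 9.98 to 12.4) and 293 of the 2418 adipocyte-only regions (12.1%, 10.9 to 13.5). The other adipocyte-only regions, 2125 without either factor, and the 216 adipocyte regions shared with the final macrophage list serve for comparison.

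All values come from ChIP-seq, in which chromatin fragments bound by an antibody are sequenced and pile up over the occupied positions. Adipocytes were 3T3-L1 cells, a mouse preadipocyte line differentiated in culture, profiled for PPARγ and for acetylated histone H3 lysine 9 (H3K9Ace). Macrophages came from male C57BL/6 mice, by peritoneal lavage on day 3 after 1 ml of 3% thioglycollate, and were purified by adherence for 24 h; they were profiled for PPARγ, PU.1, C/EBPβ and H3K9Ace. Cells of at least 4 animals were pooled for each macrophage run, macrophage PPARγ joined 2 runs, and each of the 6 libraries stands alone in its group. Adipocyte lysates were nuclear and macrophage lysates whole-cell, and the labels name a pair of PPARγ antibodies without saying which served which cells. No drug treatment or genotype contrast is part of the design. The antibody and title fields name their targets, although the description field names PPARγ for all of them. The lists hold no expression values, so the labelled cell types were not checked against marker genes. Read totals are not part of the lists and depth is therefore unknown.

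PPARγ is a nuclear receptor that binds DNA together with its partner RXR and drives the gene program of fat cells, where C/EBP proteins often bind beside it. In macrophages it takes part in the control of lipid handling and inflammation. PU.1 is an ETS-family factor that opens chromatin in myeloid and B cells, whereas C/EBPβ, a leucine-zipper factor, acts in both lineages and is an early factor of fat cell differentiation. H3K9Ace marks active promoters and enhancers.

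Macrophage C/EBPβ was the more frequent partner. It lay at 224 of the 293 regions, alone at 148 (50.5%, 44.8 to 56.2) and with PU.1 at 76 (25.9%, 21.3 to 31.2). PU.1 without C/EBPβ lay at 69 regions (23.5%, 19.1 to 28.7). Over the whole final adipocyte list, including regions shared with macrophages, C/EBPβ was met by 14.5% of regions and PU.1 by 9.45%, and the final macrophage PPARγ list by 8.2%. Since the rule used these lists, the counts describe the make-up of the group only.

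By the authors' own values adipocyte PPARγ enrichment had a slightly lower median than elsewhere, with overlapping quartiles. The authors' fold over an unnamed control ran from 5.01 to 17.89 with a median of 6.16 (quartiles 5.57 and 7.16), against a median of 6.37 (5.68 and 7.58) at the 2125 regions without factor and 7.00 (5.89 and 8.69) at shared regions. Median peak height was 11, against 12 without factor and 13 at shared regions. The 3 factor states had close medians of fold, 5.97 with both factors, 6.24 with PU.1 alone and 6.21 with C/EBPβ alone, and their quartile ranges overlapped. Region width, which affects how easily any overlap is met, was nearly the same, with a median of 257 bp against 259 bp at regions without factor.

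The strongest members are named within each of the 3 factor states, so every state is present by choice. The highest fold, 17.9, belonged to a C/EBPβ region on chromosome 2 at 163163182 to 163163526 (mm8, as are all positions here), which was acetylated in both cell types and was not in the longer macrophage list. With PU.1 alone the strongest was on chromosome 9 at 31011812 to 31012041, with a fold of 13.98 in adipocytes and 4.79 in the longer macrophage list; it was acetylated in adipocytes alone. With both factors the strongest was on chromosome 6 at 82829117 to 82829433, with an adipocyte fold of 13.2, a macrophage fold of 5.32 and H3K9Ace in both cell types. Regions with a high adipocyte fold thus occurred both in and outside the longer macrophage list.

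The next in rank within each state varied in the same way. Among regions with both factors, chromosome 5 at 125682737 to 125683149 (adipocyte fold 12.8) and chromosome 10 at 6190698 to 6190958 (10.4) were acetylated in both cell types, and chromosome 5 at 65635943 to 65636460 (11.5) in adipocytes alone. Among PU.1 regions, chromosome 6 at 115386623 to 115386920 (12.6) and chromosome 17 at 83992121 to 83992544 (10.35) were acetylated in both, and chromosome 6 at 83378793 to 83379093 (10.5) in adipocytes alone. Among C/EBPβ regions, chromosome 5 at 101100849 to 101101342 (11.7) was acetylated in both and chromosome 15 at 102815550 to 102815749 (11.0) in adipocytes alone. The region on chromosome 6 at 119364882 to 119365323 (13.5) had H3K9Ace in neither cell type, with the nearest acetylated region 427 bp away in adipocytes and 2182 bp away in macrophages. Of these 12 regions, 11 were acetylated in adipocytes and 7 in macrophages.

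H3K9Ace was not used by the rule. In macrophages, the cells in which PPARγ did not reach the final list, 133 of the 293 regions were acetylated, 45.4% (39.8 to 51.1), where 19% of all final adipocyte PPARγ regions were. Of the adipocyte-only regions without a factor, 217 of 2125 carried the macrophage mark, 10.2% (8.995 to 11.6), a difference of 35.2 percentage points (95% Newcombe interval 29.4 to 41.0). Regions shared with macrophage PPARγ reached 69.9% (63.5 to 75.6), a difference of -24.5 points (-32.5 to -15.9). The macrophage mark at these regions thus lay between the levels of the other classes, with intervals that did not overlap theirs. These intervals cover counting error only, treat regions as independent and compare lists of 1 library each, so no p-value is given.

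In adipocytes 254 of the 293 were acetylated, 86.7% (82.3 to 90.1), close to the 81.1% of the whole final list. The difference from regions without factor, 80.3% (78.6 to 82.0), was 6.36 points (1.70 to 10.2), and that from shared regions was 5.21 points with an interval that included 0 (-1.15 to 11.9). The excess over regions without factor was thus 6.36 points in adipocytes and 35.2 points in macrophages. Regions without factor started from 80.3% in adipocytes and 10.2% in macrophages. An excess therefore had less room in adipocytes, and the sizes are not directly comparable. The adipocyte H3K9Ace list also covers more regions, 51257 against 37263 in macrophages.

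At 129 members both cell types were acetylated (44.0%, 38.5 to 49.8), at 125 adipocytes alone (42.7%, 37.1 to 48.4), at 35 neither (11.9%, 8.72 to 16.2) and at 4 macrophages alone (1.37%, 0.532 to 3.46). Of the adipocyte-acetylated members 129 of 254 carried the macrophage mark (50.8%), against 4 of the 39 others (10.3%). Of the members with the macrophage mark, 129 of 133 also had the adipocyte mark (97.0%), much as 210 of 217 regions without factor did (96.8%), a difference of 0.218 points (-4.55 to 3.98). Regions without factor had the mark in both cell types in 9.88% of cases and in adipocytes alone in 70.4%.

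**Figure D1:**
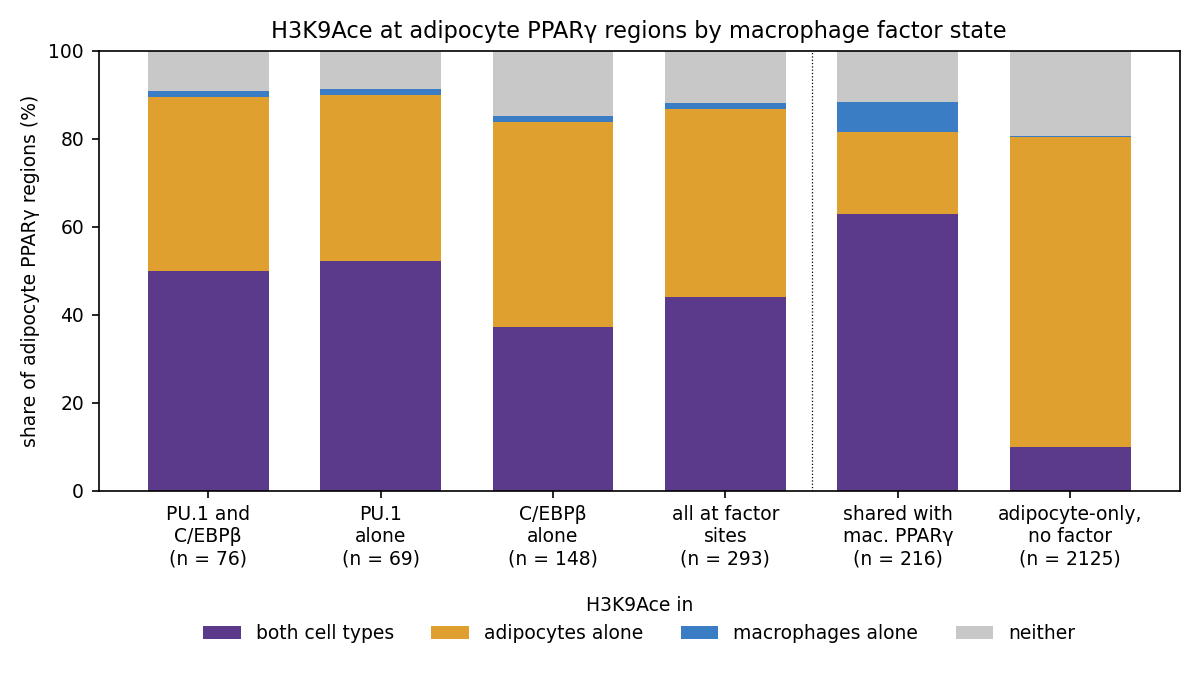
Bars show the share of adipocyte PPARγ regions (percent, vertical axis) with H3K9Ace in both cell types, in adipocytes alone, in macrophages alone or in neither, for each macrophage factor state, for all 293 regions at factor sites, and, right of the dotted line, for the 216 shared and 2125 factor-free regions. Acetylation in both cell types reached 44.0% at factor sites, 63.0% at shared regions and 9.88% at regions without factor.

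The 4 members acetylated in macrophages alone had adipocyte folds of 5.09 to 8.52, and 2 of them lay above the members' upper quartile of 7.16. They were found on chromosome 11 at 86445772 to 86445919 (PU.1 alone, adipocyte fold 8.52), chromosome 19 at 46954779 to 46955002 (C/EBPβ alone, 7.77) and at 43850574 to 43850913 (C/EBPβ alone, 5.14), and chromosome 2 at 165926228 to 165926440 (both factors, 5.09). The nearest adipocyte acetylated region was between 2587 and 50228 bp away. The chromosome 11 region and the chromosome 2 region were also in the longer macrophage list, with folds of 4.52 and 2.85.

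By factor state, macrophage H3K9Ace was more frequent with PU.1 alone than with C/EBPβ alone. It lay at 39 of 76 regions with both factors (51.3%, 40.3 to 62.2), at 37 of 69 with PU.1 alone (53.6%, 42.0 to 64.9) and at 57 of 148 with C/EBPβ alone (38.5%, 31.1 to 46.5). PU.1-alone regions exceeded C/EBPβ-alone regions by 15.1 points (0.961 to 28.6). Outside the longer macrophage PPARγ list the excess was 20.4 points (4.28 to 35.7). Within that list it was 1.32 points, with an interval that included 0 (-25.4 to 26.2). For regions with both factors the excess over C/EBPβ alone, 12.8 points, had an interval that included 0 (-0.842 to 26.0). Each state was above the regions without factor, by 41.1 points with both factors (29.99 to 52.1), 43.4 with PU.1 alone (31.7 to 54.7) and 28.3 with C/EBPβ alone (20.7 to 36.4). The adipocyte mark was present at 89.5%, 89.9% and 83.8% of the 3 states in that order, with intervals of every difference between states that included 0.

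Acetylated regions at the members were wider in adipocytes, as in the other classes. At the 129 members marked in both cell types the adipocyte region was the wider one in 114 cases, the macrophage region in 14, and they were equal in 1. Median widths were 4600 bp in adipocytes (quartiles 2950 and 8600) and 1850 bp in macrophages (1200 and 3050), against 1000 bp and 1050 bp over the full lists; overlap favours wide regions, so the last pair is no measure of excess. The macrophage region lay wholly inside the adipocyte one at 98 of the 129. Members that were not acetylated in macrophages sat in narrower adipocyte regions, with a median of 2300 bp (1500 and 3750) over 125 regions. A similar order held without factor, with 5075 bp at regions acetylated in macrophages and 3350 bp at the others. At shared regions these medians were 4300 and 2350 bp. Macrophage regions were narrower in both classes, with medians of 1750 bp without factor and 1850 bp at shared regions. Members lay a median of 1025 bp from the nearest edge of the adipocyte region and 561 bp from that of the macrophage region.

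**Figure D2:**
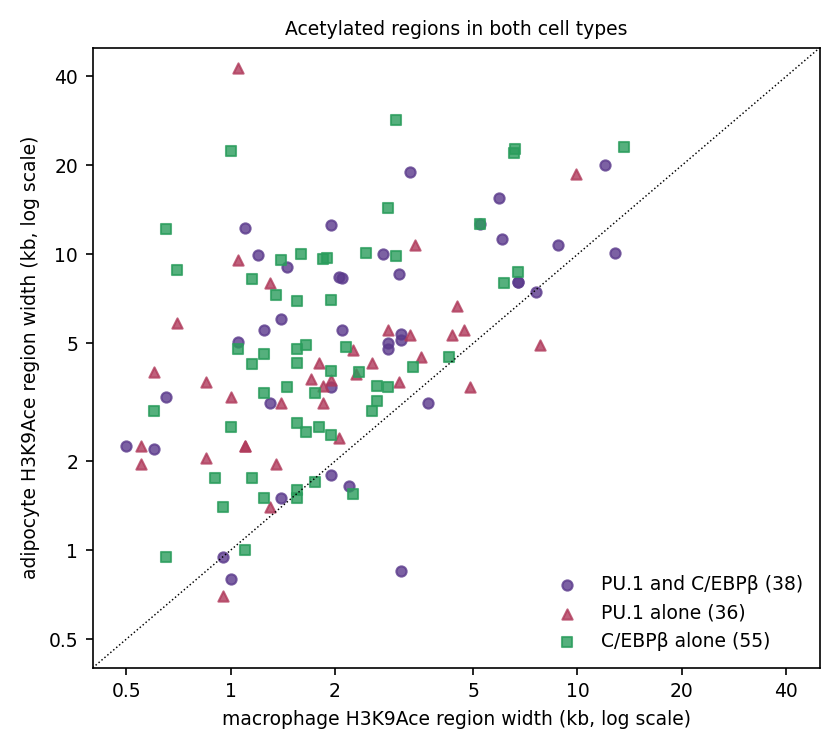
Each point is 1 of the 129 members acetylated in both cell types, with the width of the macrophage H3K9Ace region on the horizontal axis and of the adipocyte region on the vertical axis (kb, both log scales), marked by factor state. Points above the dotted line of equal width, 114 of 129, have the wider region in adipocytes.

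The 160 members without macrophage H3K9Ace were often near it. The nearest macrophage acetylated region was a median of 6790.5 bp away (quartiles 2093 and 18566), against 16199 bp (4571 and 58756) for the 1908 unmarked regions without factor. Within 10000 bp of macrophage H3K9Ace lay 103 of the 160 (64.4%) and 39.99% of the others, a difference of 24.4 points (16.4 to 31.7). Within 1000 bp lay 22 of the 160 (13.8%) and 7.55% of the others, a difference of 6.20 points (1.53 to 12.5).

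The longer macrophage PPARγ list, which reaches down to a fold of 2.15 and a false discovery rate of 9.67%, shows where weak macrophage PPARγ was recorded. Of the 293 members, 94 overlapped it, 32.1% (27.0 to 37.6), where 14.2% of the final adipocyte list did with shared regions included. Regions without factor, which avoid the final macrophage list alike, overlapped it in 65 of 2125 cases, 3.06% (2.41 to 3.88), a difference of 29.0 points (23.9 to 34.6). The final list is contained in the longer one, so shared regions are in it by construction and give no comparison. The remaining 199 members had no macrophage PPARγ in either list, which at unknown depth does not show that it was absent.

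Weak macrophage PPARγ was most frequent where both factors were bound. It was listed at 37 of 76 such regions (48.7%, 37.8 to 59.7), at 17 of 69 with PU.1 alone (24.6%, 16.0 to 36.0) and at 40 of 148 with C/EBPβ alone (27.0%, 20.5 to 34.7). Regions with both exceeded those with C/EBPβ alone by 21.7 points (8.33 to 34.5) and those with PU.1 alone by 24.0 points (8.33 to 38.1). PU.1 alone and C/EBPβ alone differed by -2.39 points, with an interval that included 0 (-13.9 to 10.7). In macrophage acetylation, by contrast, regions with both factors and with PU.1 alone differed by -2.31 points (-18.1 to 13.6). Split by macrophage H3K9Ace, some intervals for weak PPARγ included 0. Regions with both exceeded C/EBPβ alone by 13.5 points with the mark (-6.53 to 32.2) and 24.6 without it (7.32 to 41.8). They exceeded PU.1 alone by 26.8 points with the mark (4.73 to 45.5) and 21.4 without it (-0.931 to 40.6).

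Acetylation and weak PPARγ in macrophages overlapped in part. Of the members with macrophage H3K9Ace 54 of 133 were in the longer list (40.6%, 32.6 to 49.1), and of those without it 40 of 160 (25%, 18.9 to 32.2), a difference of 15.6 points (4.83 to 26.0). Split by overlap with macrophage H3K9Ace, members as a whole exceeded regions without factor on both sides. The split does not equalise acetylation, since unmarked members lay nearer to macrophage H3K9Ace than unmarked regions without factor. With macrophage H3K9Ace the longer list held 40.6% of members and 14.3% of regions without factor, a difference of 26.3 points (16.8 to 35.7). Without the mark it held 25% and 1.78%, a difference of 23.2 points (17.1 to 30.5). By factor state the exception was PU.1 alone with the mark, at 12.7 points with an interval that included 0 (-0.0299 to 29.2). The other states with the mark, and every state without it, had intervals above 0. Conversely, among regions outside the longer list 39.7% of members and 9.03% of regions without factor were acetylated in macrophages, a difference of 30.7 points (24.0 to 37.7). Among regions in the longer list the shares were 57.4% and 47.7%, a difference of 9.75 points with an interval that included 0 (-5.87 to 24.8). At 120 of the 293 members there was neither macrophage H3K9Ace nor a longer-list region, and 95 of those 120 were acetylated in adipocytes.

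**Figure D3:**
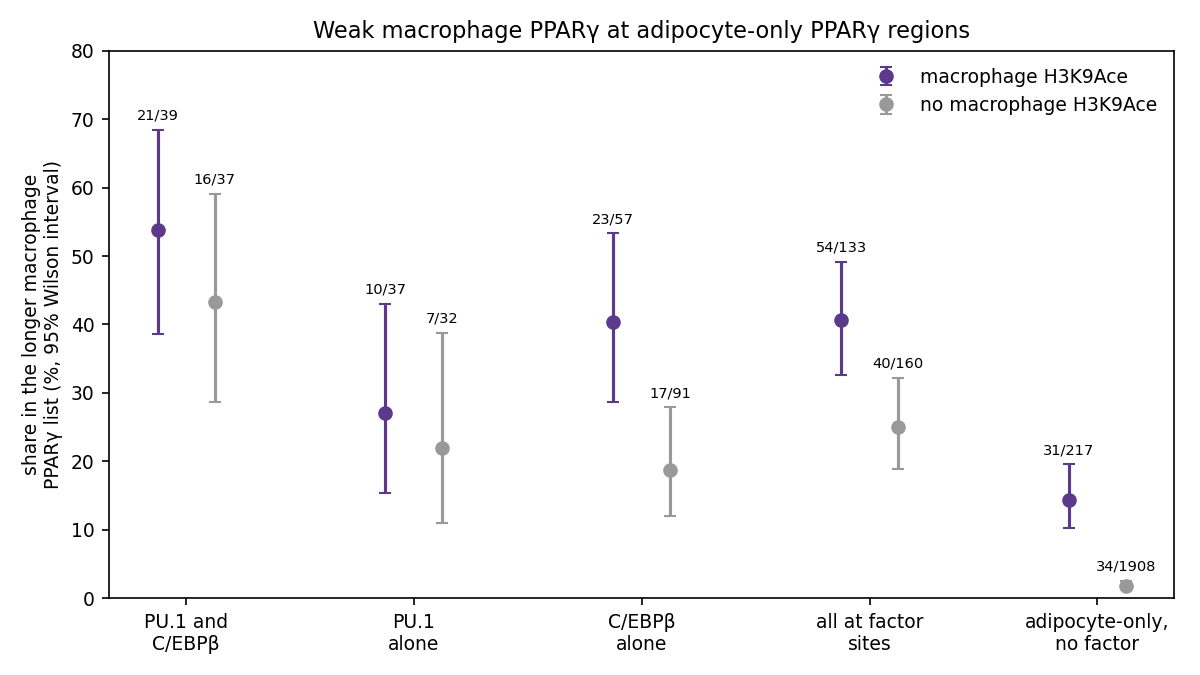
Points give the share of regions in the longer macrophage PPARγ list (percent, with 95% Wilson intervals and counts), for regions with and without macrophage H3K9Ace in each factor state, in all members and in adipocyte-only regions without factor. With both factors the share was 53.8% with the mark and 43.2% without, against 14.3% and 1.78% at regions without factor.

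The longer-list values of these 94 regions were low throughout. Their macrophage fold ran from 2.83 to 5.57 with a median of 4.25 (quartiles 3.87 and 4.66), and their peak height from 6 to 14 with a median of 8. The 65 regions without factor had a median fold of 4.24 and a median height of 8. Both sets leave out the final list and end at the lower limit of the longer list. Their folds are thus held in a narrow band, and close medians do not show equal binding. The authors' false discovery rate was at most 1% at 47 of the 94 (50%), at 18 of those 65 (27.7%), and at 1889 of the 16509 longer-list regions outside the final list (11.4%). The difference between members and regions without factor was 22.3 points (6.83 to 36.0). Median macrophage fold was 4.40 with both factors, 4.27 with PU.1 alone and 4.20 with C/EBPβ alone. It was 4.26 at members with macrophage H3K9Ace and 4.20 without. Median adipocyte fold did not separate members in the longer list (6.16) from the rest (6.17).

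The 94 regions missed the final macrophage list in different ways. Every region of the final list had a fold of at least 5, a height of at least 9 and a false discovery rate of 0.24%. Of the 94, 24 had that rate with a fold below 5, the highest at 4.97, and peak heights of 8 to 14. Another 7 had a fold above 5 with a rate of 0.68 to 3.47% and heights of 8 or 9. The other 63 missed the limits of fold and rate alike, and none overlapped a masked interval. The lowest macrophage fold among shared regions was 5.03, so some members lay very close to the limit.

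Of all 94 regions, 37 carried both factors and 54 (57.4%) were acetylated in macrophages. Of the 7 regions above the fold limit, 6 carried both factors and 4 were acetylated in macrophages. The highest was on chromosome 11 at 95126292 to 95126472, with a macrophage fold of 5.57 and an adipocyte fold of 5.28. Next came chromosome 6 at 86992690 to 86992931, with 5.53 in macrophages and 7.40 in adipocytes, and chromosome 5 at 125681658 to 125681838, with 5.46 and 5.77 in the same order of cell types. All of these had both factors and H3K9Ace in both cell types. The fourth, on chromosome 17 at 27734881 to 27735123 (5.40 in macrophages), had PU.1 alone and no macrophage H3K9Ace, and the fifth was the region at 82829117 on chromosome 6 described above. The chromosome 5 region lies close to the strong member at 125682737, within the same macrophage acetylated region of 6750 bp.

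**Figure D4:**
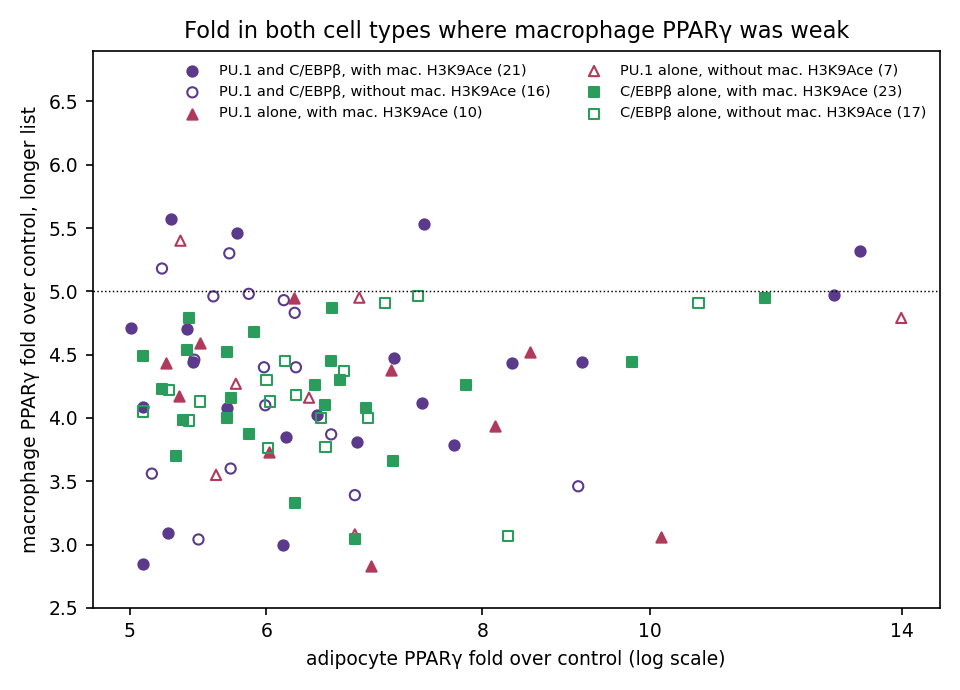
The authors' PPARγ fold in adipocytes (horizontal, log scale) is plotted against the fold in the longer macrophage list (vertical, linear scale) for the 94 members in that list, by factor state, with filled symbols for macrophage H3K9Ace. The dotted line marks the fold of 5 required by the final macrophage list; 7 points lie above it and the highest adipocyte folds, 13.98 and 13.23, lie below and above it.

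Within the members, C/EBPβ was centred on adipocyte PPARγ more tightly than PU.1. The median distance between centres was 47.5 bp to C/EBPβ (quartiles 21.5 and 86.0, 224 regions) and 104 bp to PU.1 (47.0 and 175, 145 regions). With PU.1 alone the PU.1 centre lay inside the PPARγ region in 39 of 69 cases (56.5%), and with C/EBPβ alone the C/EBPβ centre did in 134 of 148 (90.5%), a difference of -34.0 points (-46.3 to -21.5). Over these states the factor covered a median of 56.9% of the PPARγ region for PU.1 and 78.5% for C/EBPβ. Factor regions had like widths, with medians of 268 bp for PU.1 and 264 bp for C/EBPβ. Overlap bounds these distances, so only their order within the bound is informative.

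PU.1 lay closer where C/EBPβ was also bound. With PU.1 alone its median distance was 125 bp and its centre was inside the PPARγ region in 39 of 69 cases (56.5%). With both factors the distance was 84.5 bp and the centre was inside in 58 of 76 (76.3%), a difference of -19.8 points (-34.1 to -4.43). At the 76 regions with both factors the C/EBPβ centre was the closer in 53 (69.7%, 58.7 to 78.9), against 47 of 89 (52.8%, 42.5 to 62.8) at shared regions with both, a difference of 16.9 points (1.98 to 30.7). The factor regions overlapped each other at 74 of the 76, with centres a median of 45.75 bp apart.

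PU.1 lay less centrally at members than at shared regions, which more often carried C/EBPβ too (76 of 145 members and 89 of 104 shared regions with PU.1). The PU.1 centre was inside the PPARγ region in 66.9% of 145 members and 88.5% of 104 shared regions, a difference of -21.6 points (-30.9 to -11.2). Where both factors were bound the shares were 76.3% and 89.9%, a smaller difference of -13.6 points (-25.2 to -2.15). With PU.1 alone they were 56.5% of 69 members and 80% of 15 shared regions, a difference of -23.5 points with an interval that included 0 (-41.0 to 4.02). Median widths differed too, with PPARγ regions of 257 bp at members and 277.5 bp at shared regions and PU.1 regions of 271 and 312.5 bp; the part of width in this difference was not tested. For C/EBPβ these shares were 89.7% and 88.0%, a difference of 1.76 points with an interval that included 0 (-4.52 to 8.61). Neither factor favoured a side of the region, with PU.1 centres at lower coordinates in 74 cases and higher in 71, and C/EBPβ centres in 110 and 114.

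**Figure D5:**
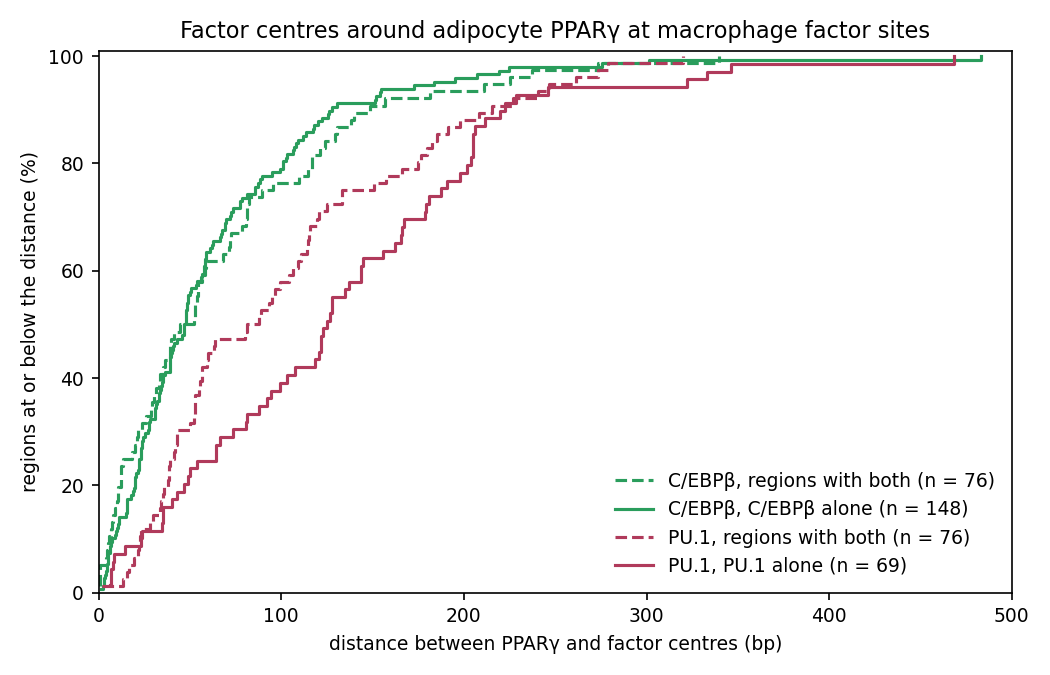
Curves give the percentage of members (vertical) whose factor centre lies at or below a given distance from the PPARγ centre (horizontal, bp), for C/EBPβ in green and PU.1 in red, dashed where both factors are bound. The C/EBPβ curves rise first, with medians of 48.25 bp with both factors and 47.5 bp with C/EBPβ alone, and the PU.1-alone curve rises last, with a median of 125 bp.

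Differences in the macrophage readouts by factor position had intervals that included 0. With PU.1 alone, weak macrophage PPARγ was listed at 10 of 39 regions with the PU.1 centre inside and at 7 of 30 with it outside (25.6% and 23.3%), a difference of 2.31 points (-18.5 to 21.6). Macrophage H3K9Ace lay at 59.0% and 46.7% of the same regions, a difference of 12.3 points (-10.9 to 33.9). For this mark the sign was opposite in the other states, at -20.6 points with C/EBPβ alone (-43.4 to 5.38) and -20.1 points by PU.1 position with both factors (-41.1 to 6.06). These intervals are wide and do not show that the positions act alike.

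The overlap of 1 bp that defines the group is a sharp limit on a gradual scale. Members shared between 3 and 565 bp with their factor region, with a median of 191 bp, and 9 of 293 shared under 50 bp. The smallest overlaps were 3 bp on chromosome 11 at 50169368 to 50169572 (PU.1), 15 bp on chromosome 19 at 4121149 to 4121343 (C/EBPβ) and 16 bp on chromosome 12 at 74223307 to 74223559 (C/EBPβ). Just outside, the region on chromosome 19 at 47032999 to 47033395 (adipocyte fold 12.5) touched a factor region without sharing a base, and regions on chromosome 6 at 29272521 to 29272865 and at 85258985 to 85259505 lay 3 and 10 bp away. Only 26 of the 2125 regions without factor lay within 100 bp of one.

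Regions that had a factor nearby without overlapping it were compared with members in both macrophage readouts. Macrophage H3K9Ace lay at 133 of 293 members (45.4%) and at 93 of the 220 adipocyte-only regions that had PU.1 or C/EBPβ within 1000 bp without overlap (42.3%). The difference was 3.12 points with an interval that included 0 (-5.54 to 11.7). Weak macrophage PPARγ, in contrast, was listed at 94 of 293 members (32.1%) and 24 of these 220 neighbours (10.9%), a difference of 21.2 points (14.2 to 27.7). The 1905 regions with no factor that near had the macrophage mark in 6.51% of cases and weak macrophage PPARγ in 2.15%. Adipocyte H3K9Ace was present at 86.7% of members, 88.2% of the neighbours and 79.4% of the further regions. The bound of 1000 bp was chosen after values were seen. Macrophage acetylated regions had median widths of 1850 bp at members and 1750 bp at regions without factor. A factor within 1000 bp can thus lie in the same acetylated region as a PPARγ region that it does not overlap. The part of width in this contrast was not tested.

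Final macrophage PPARγ was more often near members. A region of the final macrophage list lay within 10000 bp of 38 members (13.0%) and of 114 regions without factor (5.36%), a difference of 7.60 points (4.07 to 12.0). Within 1000 bp it did for 11 members (3.75%) and 12 regions without factor (0.565%), a difference of 3.19 points (1.49 to 6.04). The rule used the final macrophage PPARγ list and both factor lists to form these classes, so these distances are a description only. Another adipocyte PPARγ centre was within 10000 bp of 57 members (19.5%) and of 22.7% of regions without factor, a difference of -3.28 points with an interval that included 0 (-7.79 to 1.94). The members were scattered: 250 adipocyte acetylated regions held the 254 acetylated members, 4 of these regions held more than 1, and 10 members had another member centre within 10000 bp.

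Chromosome 6 held the most members, 51 of 293 (17.4%, 13.5 to 22.2), as it held the most adipocyte PPARγ regions in all (375 of 2634, 14.2%). Against regions without factor the difference was 3.48 points with an interval that included 0 (-0.727 to 8.44). Chromosomes 2, 5 and 4 followed with 26, 25 and 21 members. These were 8.87%, 8.53% and 7.17% of members, against 8.81%, 8.66% and 4.67% of all final adipocyte regions.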

How the data were processed

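Per the labels' protocols, the authors mapped 36-bp reads to mm8 with ELAND and kept unique best matches; no settings of the peak caller are stated there. The deposited PPARγ lists carry, per the file headers, a fold (linear ratio) over an unnamed control, a peak height (signal) and a false discovery rate (read as percent) for each region; these are the authors' values. The other lists give positions alone, printed as deposited. The 20 repeated rows of adipocyte H3K9Ace were counted once. The 460 masked intervals were used only to test overlap. Here, regions were compared in Python 3.11.15 (pandas 2.3.3) by overlap of at least 1 bp, checked against bedtools 2.31.1; where several factor or longer-list regions met a member, the nearest centre or the highest fold was used. Shares carry 95% Wilson and differences 95% Newcombe intervals (statsmodels 0.14.6). Each group holds 1 library, so no p-value was computed. Members and lists were chosen with earlier results of these data known. Named regions are the 4 with the highest adipocyte fold in each factor state, the 5 with the highest macrophage fold, the 3 nearest each side of the overlap limit, and those acetylated in macrophages alone. Sequences and gene annotation of mm8 were not used here. Alternatives changed the overlap rule, the lists, the fold and the chromosomes used.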

Additional observations from a re-analysis of the deposited data

How the results depend on the processing

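Of 43 values recomputed under the alternatives, 32 stayed within the 95% interval (or, for counts, within 1.5 times), 11 did not and none changed sign. The combined adipocyte list of 3 datasets, with wider regions and no fold, accounted for 6 of the 11. It gave 1970 members, with both factors at 33.3%, H3K9Ace in adipocytes at 82.0% and in macrophages at 60.5%, a longer-list share of 26.8%, and a macrophage acetylation difference from regions without factor of 48.9 points. Requiring a fold at or above the adipocyte median of 6.39 left 126 members. With at least 50% of the shorter region in every overlap, adipocyte acetylation was 81.1%. Leaving out members in the longer macrophage list lowered macrophage acetylation to 39.7% and the share with both factors to 19.6%. Extending acetylated regions by 1000 bp gave 52.9% in macrophages, against 17.0% at regions without factor. The difference in longer-list share stayed between 24.2 and 30.6 points. No library was repeated, so no replicate could be left out and the intervals hold no variation between cultures or animals. No paired analysis was possible because each group has 1 library. Depth is unknown, so a region missing from a list may still be weakly bound.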
